A study of Mus musculus with 6 samples.

Results

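The epidermal differentiation complex is a cluster of genes on mouse chromosome 3 that encode precursors of the cornified envelope and small calcium-binding proteins of the S100A family. Its members were taken by symbol among protein-coding genes, as the SPRR (small proline-rich), LCE (late cornified envelope) and S100A names together with Flg, Flg2, Hrnr, Rptn, Tchh, Tchhl1, Ivl, Lor, Crnn, Crct1 and Kprp. They numbered 60 of the 34989 genes with a matched transcript, and in GRCm38 (mm10) they lay at chr3:90511034-93564643, a span of 3.05 Mb. By family there were 15 SPRR genes, 21 LCE genes, 13 S100A genes, 7 S100-fused genes (Flg, Flg2, Hrnr, Rptn, Tchh, Tchhl1 and Crnn) and 4 other precursors (Ivl, Lor, Crct1 and Kprp).

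RNA was sequenced from mouse handpads, the paddle-shaped ends of the embryonic forelimbs, of C57BL/6 embryos at stage E14.5. The groups were 3 Grhl3 knockout samples (KO) and 3 wild-type samples (WT), and the series is about epithelial migration and the periderm in the separation of the digits. The labels give no other allele or agent, do not say how the knockout was made, and do not say that replicates were separate embryos. The p-values therefore measure no more than how far these samples differ among themselves, part of which may be technical.

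In the outer epidermis, transglutaminases cross-link SPRR proteins, involucrin, loricrin and LCE proteins into a shell beneath the plasma membrane, the cornified envelope. SPRR proteins and involucrin are cross-linked early, loricrin becomes the bulk of the mature envelope, and LCE genes come on late in differentiation. The S100-fused proteins carry an S100 domain joined to long repeats, and filaggrin, the best known of them, compacts keratin filaments. Grhl3 encodes a transcription factor of the grainyhead family that acts in surface epithelia, is needed for the skin barrier, and is known to regulate Tgm1, an epidermal transglutaminase.

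Grhl3 itself was at 3.10, 2.86 and 2.95 CPM (CPM is a count scaled to library size, here adjusted by TMM) in KO libraries, against 14.3, 45.7 and 18.5 CPM in WT libraries. The groups did not overlap, and the log2 fold change was -3.14 (SE 0.41, edgeR quasi-likelihood test, adjusted p = 0.02215). The fold change kept its sign with each library left out, but the call was lost without KO replicate 1 (-3.17, adjusted p = 0.162), KO replicate 2 (-3.12, 0.0759), KO replicate 3 (-3.13, 0.121) or WT replicate 3 (-3.35, 0.0806). Libraries held 38052692 to 56037639 estimated counts, of which members of the complex took 0.0334% to 0.0534%. WT replicate 1 stood apart, with 8.92% of its counts on ribosomal protein genes (5.62% to 7.75% in the others) and a mean length of 3148 bases for the transcripts counted (3347 to 3625 in the others). Y-linked genes summed to 3.38, 4.14 and 4.43 CPM in KO libraries, against 5.36, 290 and 341 CPM in WT replicates 1, 2 and 3. The Y-linked sum was therefore low in every KO library and in WT replicate 1, and high in WT replicates 2 and 3. Without WT replicate 1, genotype and embryo sex cannot be told apart.

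The results turn most on 3 near-identical SPRR2 genes, and their coding sequences show why reads could hardly be divided among them. Sprr2a1 (coding bases at chr3:92219092-92219343, plus strand, GRCm38) and Sprr2a2 (chr3:92253905-92254156, plus strand) had the same 252 coding bases. The coding sequence of Sprr2a3 (chr3:92288588-92288839, plus strand) was 98.8% identical to both and differed by G63A, G159T and A192T. The first base of each change is that of Sprr2a1 and the last that of Sprr2a3, with positions counted from 1 at the A of the start codon. Capitals mark the 3 changed bases.
Sprr2a1 and Sprr2a2 coding sequence: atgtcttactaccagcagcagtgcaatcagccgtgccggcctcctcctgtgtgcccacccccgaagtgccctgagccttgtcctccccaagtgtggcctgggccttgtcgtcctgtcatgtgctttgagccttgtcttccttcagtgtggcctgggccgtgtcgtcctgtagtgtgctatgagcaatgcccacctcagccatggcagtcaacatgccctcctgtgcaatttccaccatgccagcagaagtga
Sprr2a3 coding sequence: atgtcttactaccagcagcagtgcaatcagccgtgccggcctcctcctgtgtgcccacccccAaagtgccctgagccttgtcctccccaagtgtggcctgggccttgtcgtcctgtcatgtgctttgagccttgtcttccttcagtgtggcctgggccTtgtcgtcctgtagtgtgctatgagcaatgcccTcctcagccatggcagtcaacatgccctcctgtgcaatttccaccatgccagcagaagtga
Over whole transcripts, 96.9% of the 31-base words of Sprr2a1, 97.8% of those of Sprr2a2 and 73.6% of those of Sprr2a3 also occurred in another gene. Apart from these genes, only Lce1i and Lce3d, both at 0 counts, shared as large a part of their 31-base words, which makes 5 members with 50% or more. Sprr1a, Sprr1b, S100a6, S100a8, S100a9, Lor and Tchh shared none, and Ivl shared 0.428%.

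The promoters of Ivl, Sprr1a, Sprr1b and Sprr2a1 are shown because each of these precursors had a log2 fold change above 1, and that of Sprr2k stands for an Sprr2 gene with few counts. Each is the 300 bases from 250 before to 50 after the RefSeq start (GRCm38.p6), read along the strand of the gene. Capitals mark matches, on either strand, to TGANTCA (the motif of AP-1 factors) and TATAAA (the TATA box).
Ivl (chr3:92573686-92573985, minus strand): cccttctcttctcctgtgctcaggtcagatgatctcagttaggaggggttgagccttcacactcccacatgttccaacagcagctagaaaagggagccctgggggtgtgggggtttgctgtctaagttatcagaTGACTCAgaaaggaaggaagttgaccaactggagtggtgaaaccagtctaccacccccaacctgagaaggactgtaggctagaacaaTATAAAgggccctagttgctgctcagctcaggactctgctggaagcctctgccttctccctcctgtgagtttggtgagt
Sprr1a (chr3:92485832-92486131, minus strand): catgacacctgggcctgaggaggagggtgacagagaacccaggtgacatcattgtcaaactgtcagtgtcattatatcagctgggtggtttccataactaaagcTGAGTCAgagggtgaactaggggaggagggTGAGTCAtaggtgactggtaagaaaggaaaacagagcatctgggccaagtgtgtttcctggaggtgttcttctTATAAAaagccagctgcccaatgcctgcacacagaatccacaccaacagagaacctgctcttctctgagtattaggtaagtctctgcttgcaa
Sprr1b (chr3:92438730-92439029, minus strand): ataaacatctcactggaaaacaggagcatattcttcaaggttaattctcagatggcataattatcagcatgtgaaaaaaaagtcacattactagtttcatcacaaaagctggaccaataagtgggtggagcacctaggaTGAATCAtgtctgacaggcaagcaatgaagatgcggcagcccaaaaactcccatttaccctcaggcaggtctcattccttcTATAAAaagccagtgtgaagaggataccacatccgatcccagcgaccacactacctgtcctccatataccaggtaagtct
Sprr2k (chr3:92432332-92432631, plus strand): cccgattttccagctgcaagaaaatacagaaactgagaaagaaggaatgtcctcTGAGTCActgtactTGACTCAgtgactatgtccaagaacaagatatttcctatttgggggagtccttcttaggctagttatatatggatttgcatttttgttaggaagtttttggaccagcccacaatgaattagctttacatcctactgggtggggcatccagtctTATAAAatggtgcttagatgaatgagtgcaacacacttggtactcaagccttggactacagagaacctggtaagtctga
Sprr2a1 (chr3:92215585-92215884, plus strand): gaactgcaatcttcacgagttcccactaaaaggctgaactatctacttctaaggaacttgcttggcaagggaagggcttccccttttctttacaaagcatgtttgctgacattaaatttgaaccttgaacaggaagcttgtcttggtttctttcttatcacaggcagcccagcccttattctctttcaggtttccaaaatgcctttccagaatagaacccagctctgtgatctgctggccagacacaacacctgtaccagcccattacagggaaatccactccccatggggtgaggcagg
The Ivl, Sprr1a, Sprr1b and Sprr2k windows each held a TATAAA and at least 1 TGANTCA, whereas the Sprr2a1 window held neither. The Sprr2a1 window ended at chr3:92215884, before chr3:92215920, where the annotated Sprr2a2 gene begins. The Sprr2a2 window was identical to that of Sprr2a1 over all 300 bases, and the Sprr2a3 window was identical over the 272 bases that overlapped it.

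Much of the complex was at or near 0 counts. Of the 60 members, 33 had at least 3 estimated counts over the 6 libraries, and 22 were listed at 0 in every library. The detected members were 9 of 15 SPRR genes, 3 of 21 LCE genes, 11 of 13 S100A genes, 6 of 7 S100-fused genes and all 4 other precursors. Members with 1 count or more numbered 30, 29 and 35 in KO libraries, against 26, 26 and 31 in WT libraries, and the 2 shallowest libraries were WT replicates 1 and 3. In TPM, which corrects for transcript length and allows levels of different genes to be compared, 20 members reached 1 TPM in some library, 14 reached 10 TPM and 5 reached 100 TPM.

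Nearly all transcript copies of the complex came from the S100A genes. Their summed level was 2085, 1388 and 1870 TPM in KO libraries, against 1532, 1546 and 1519 TPM in WT libraries, which was 96.2% of the TPM of all members in KO libraries and 98.2% in WT libraries. The KO sums ran both above and below the narrow WT range. SPRR genes summed to 79.9, 34.9 and 49.8 TPM in KO libraries, against 20.8, 9.46 and 17.8 TPM in WT libraries, so the groups did not overlap and the ratio of their means was 3.43. In bulk RNA, more cells of a type and more RNA per cell cannot be told apart. The SPRR2 genes alone summed to 31.4, 15.3 and 13.2 TPM in KO libraries and 2.60, 1.26 and 1.10 TPM in WT libraries. The SPRR and SPRR2 sums in TPM depend on an uncertain division of reads among Sprr2a transcripts of unlike length. S100-fused genes (3.85, 1.40 and 3.14 TPM in KO libraries, 1.32, 2.22 and 2.39 TPM in WT libraries) and the other precursors (13.4, 8.01 and 11.7 TPM in KO libraries, 11.3, 9.996 and 7.50 TPM in WT libraries) overlapped between the groups. KO replicate 1 was the highest library and KO replicate 2 the lowest KO library in all 4 of these families.

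**Figure D1:**
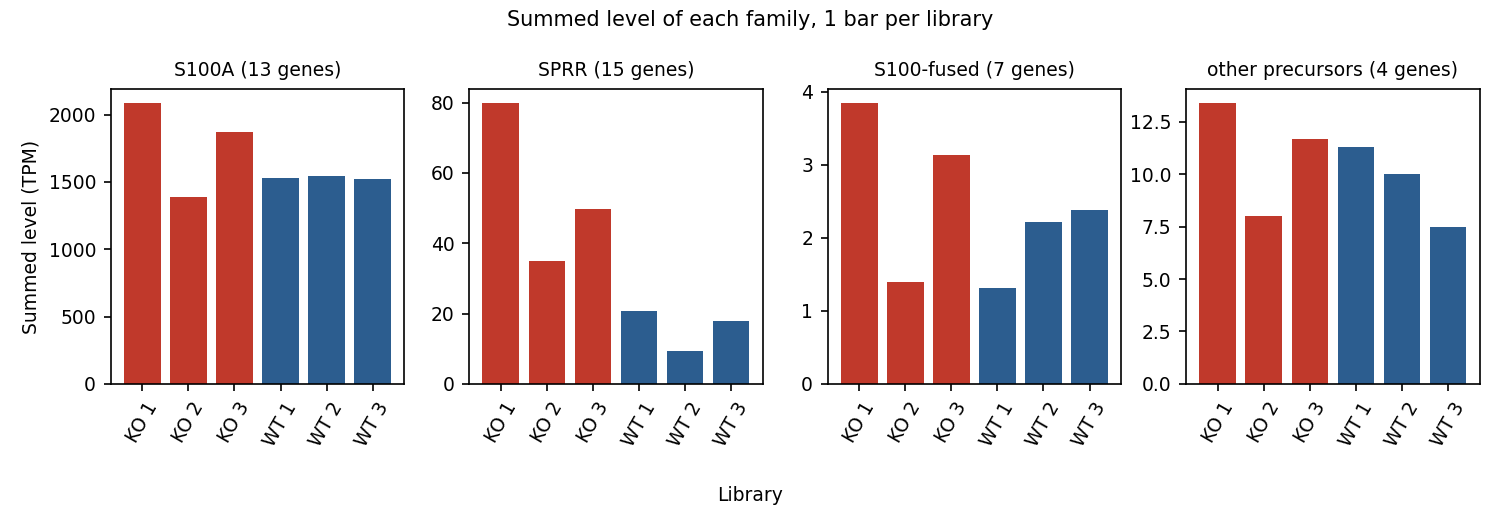
Summed level (TPM, linear axis from 0) of the S100A, SPRR, S100-fused and other precursor genes, 1 bar per library, KO in red and WT in blue. Only the SPRR panel has every KO bar above every WT bar, with 34.9 TPM in the lowest KO library and 20.8 TPM in the highest WT library.

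Enough counts for a test were present in 22 of the 60 members, and the other 38 were not tested. In the comparison of KO with WT, 2 members rose and none fell at an adjusted p under 0.05 (edgeR quasi-likelihood test, adjusted over 16938 genes). Over all genes tested, 0.431% were called in either direction and 0.348% were called higher. At an unadjusted p under 0.05, 11 members lay higher and none lay lower, beside 3.81% of all genes tested that were higher and 3.41% that were lower. In CPM, groups did not overlap in 7 of the 22 tested members, beside 6.77% of all genes tested higher and 6.16% lower. All 7 were higher in KO libraries (Sprr2a1, Sprr2a2, Sprr2a3, Ivl, Crct1, S100a6 and S100a8). Among untested members, which had few counts, CPM values did not overlap for Sprr2k and Lce3c, higher in KO libraries, and for Flg2 and Lce6a, lower in KO libraries. The median log2 fold change was 0.90 over the tested members and -0.004 over all genes tested. The members' median counts each Sprr2a copy as a gene and would be lower with these near-identical copies counted once. Among the tested members, Sprr2a3 and Crct1 had under 10 counts in every WT library and passed the filter through the KO libraries. S100a8 (10, 4 and 11 WT counts), Sprr2a2 (33.1, 13.3 and 3.55) and Crnn (15, 4 and 18) fell under 10 in a WT library. So did S100a3 (29.0, 5.02 and 14.0) and S100a9 (11, 11 and 4), and all of these needed KO counts to pass. The member counts and the median above include members that passed in this way, so they only describe the tested members.

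The number called depended on single libraries. It was 1 without KO replicate 1, 2 without KO replicate 2 and 1 without KO replicate 3, beside 0.0989%, 0.372% and 0.128% of all genes tested. It was 4 without WT replicate 1, 1 without WT replicate 2 and 0 without WT replicate 3, beside 1.2%, 0.262% and 0.0583% of all genes tested. Sprr2a3 was not called without KO replicate 2, when Sprr2a1 and Ivl were. When the fit also held the Y-linked level of each library no member was called, beside 0.354% of all genes tested.

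**Figure D2:**
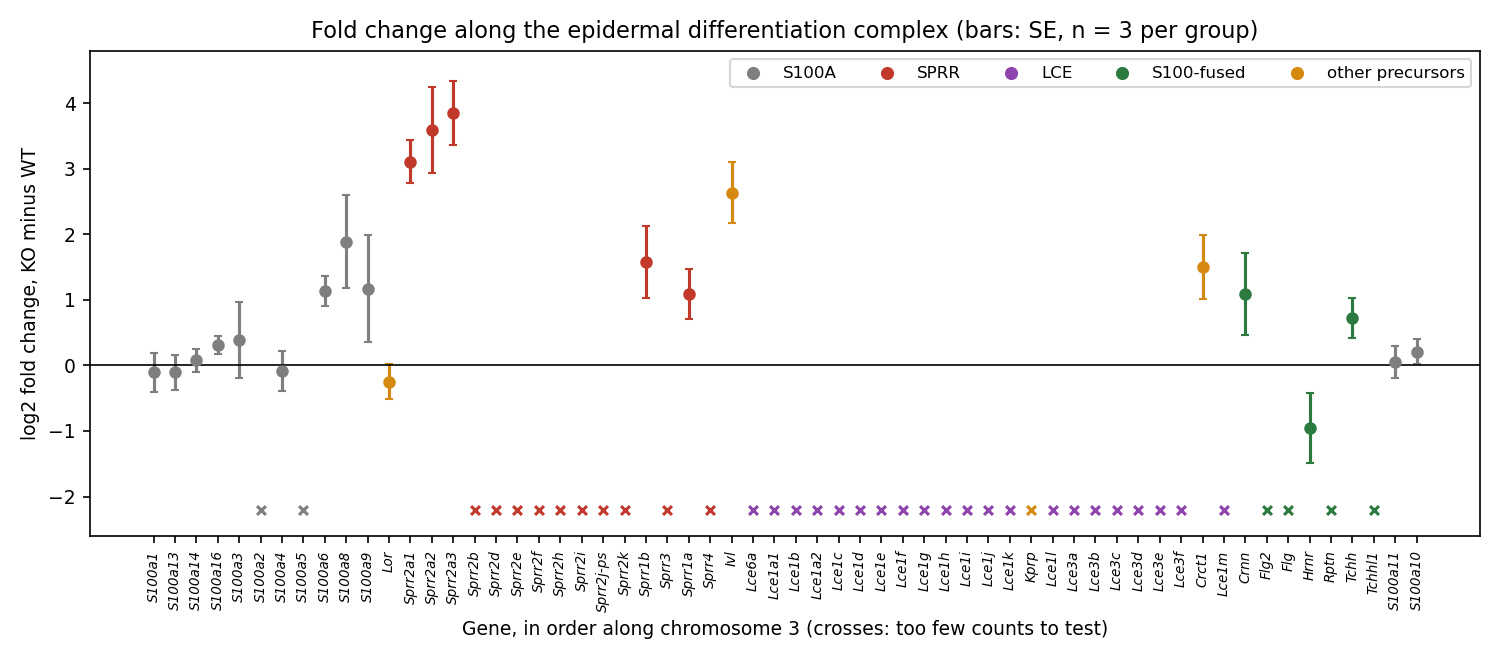
Log2 fold change (KO minus WT, edgeR) of the 22 tested members in their order along chromosome 3, with bars for the SE and 3 libraries per group, coloured by family. Crosses at the bottom mark the 38 members with too few counts to test. The highest points are the 3 Sprr2a genes (3.11 to 3.85) and Ivl (2.64), while most S100A genes lie near 0.

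Among SPRR genes, which encode the small proline-rich cross-linked precursors, both calls were of Sprr2a copies. Sprr2a1 was at 5.80, 2.80 and 3.62 CPM in KO libraries, against 0.396, 0.481 and 0.531 CPM in WT libraries. Every KO library lay above every WT library, and Sprr2a1 rose with a log2 fold change of 3.11 (SE 0.33, edgeR adjusted p = 0.0094). Sprr2a3 was at 0.507, 0.547 and 0.418 CPM in KO libraries, against 0.0264, 0.0201 and 0.0506 CPM in WT libraries. It also rose without overlap, by a log2 fold change of 3.85 (SE 0.49, edgeR adjusted p = 0.0187), and its WT libraries held 4.48 estimated counts in all. Sprr2a2 was at 7.91, 3.47 and 3.33 CPM in KO libraries, against 0.871, 0.261 and 0.101 CPM in WT libraries. Its groups did not overlap either, but its WT libraries were more spread, and its log2 fold change of 3.60 (SE 0.65) did not pass the test (edgeR adjusted p = 0.0824). With single libraries left out, Sprr2a1 lost its call without WT replicate 3 (3.20, adjusted p = 0.0801), and Sprr2a2 gained one without WT replicate 1 (4.69, adjusted p = 0.00933). The call of Sprr2a3 was lost without any one of KO replicates 1, 2 and 3 and WT replicates 2 and 3 (adjusted p = 0.107, 0.0584, 0.0715, 0.0859 and 0.093).

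Because reads of the Sprr2a copies are hard to divide, their counts were also added. Together they held 701, 325 and 405 estimated counts in KO libraries, against 49, 38 and 27 in WT libraries, or 9.47 ± 4.13 CPM in KO and 0.913 ± 0.332 CPM in WT libraries (SD, n = 3 each). All KO libraries were above all WT libraries, and the sum rose with a log2 fold change of 3.38 (SE 0.37, edgeR adjusted p = 0.0104). This call was lost without WT replicate 2 (3.26, edgeR adjusted p = 0.0507), without WT replicate 3 (3.21, adjusted p = 0.0941) and when the fit held a Y-linked term (2.74, adjusted p = 0.0822). The direction was the same with each library left out in turn, with log2 fold changes of 2.97 to 3.71.

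The division among Sprr2a transcripts is uncertain in a further way. In the annotation used here, the first exon of the transcript that received nearly all Sprr2a2 reads lies inside Sprr2a1. Sprr2a3 reads fell on 2 transcripts, and no WT library had any on the first (Sprr2a3-201, with 11.4, 23.9 and 9.54 counts in KO libraries). The values of the single copies are therefore uncertain, whereas their summed counts do not depend on the division. Their summed TPM does depend on it, because Sprr2a1-201 has 3003 bases and Sprr2a2-202 has 722. In KO replicate 1, 286 counts on the first gave 2.31 TPM and 390 counts on the second gave 27.2 TPM.

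The SPRR1 genes encode the other SPRR precursors with appreciable counts. Sprr1b was at 8.26, 3.83 and 9.02 CPM in KO libraries, against 4.198, 0.762 and 2.20 CPM in WT libraries. KO replicate 2 lay below WT replicate 1, and the log2 fold change of 1.57 (SE 0.55) did not pass the test (edgeR adjusted p = 0.493). Sprr1a was at 10.2, 3.90 and 6.20 CPM in KO libraries, against 4.198, 1.97 and 3.44 CPM in WT libraries. It overlapped in the same way, with a log2 fold change of 1.08 (SE 0.38, edgeR adjusted p = 0.506). Per length, Sprr1a averaged 17.6 ± 8.77 TPM in KO and 8.55 ± 2.33 TPM in WT libraries, and Sprr1b 17.1 ± 6.64 TPM in KO and 5.74 ± 3.36 TPM in WT libraries (SD, n = 3 each). Within libraries, Sprr1a lay above Sprr1b in all except KO replicate 3 (15.4 against 21.0 TPM).

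The remaining SPRR genes were at or near 0. Sprr2k had 7, 6 and 4 counts in KO libraries, against 0, 0 and 1 in WT libraries, too few to test. Sprr3 had 12, 0 and 7 counts in KO libraries and 0, 4 and 3 in WT libraries, with overlap between the groups. Sprr2b, Sprr2d, Sprr2h, Sprr2i and Sprr2j-ps had 4 counts or fewer in either group summed over its libraries, and Sprr2e, Sprr2f and Sprr4 were at 0 throughout. The Sprr2 genes next to the Sprr2a copies were thus not detectable or barely so at this depth.

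Involucrin, the early scaffold precursor of the envelope, had the next largest difference. Ivl was at 4.57, 1.43 and 3.35 CPM in KO libraries, against 0.634, 0.301 and 0.582 CPM in WT libraries. Its lowest KO library lay above its highest WT library, but the log2 fold change of 2.64 (SE 0.47) did not pass the test over all genes (edgeR adjusted p = 0.0773). Without KO replicate 2 it was called (2.98, adjusted p = 0.0186). Crct1, a cysteine-rich protein gene beside the LCE cluster, was at 0.751, 0.316 and 0.346 CPM in KO libraries, against 0.106, 0.181 and 0.202 CPM in WT libraries. Those groups did not overlap, and the log2 fold change was 1.503 (SE 0.49, edgeR adjusted p = 0.437).

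Loricrin, the main protein of the mature envelope, overlapped between the groups. Lor was at 9.11, 7.50 and 11.5 CPM in KO libraries, against 15.7, 10.2 and 7.46 CPM in WT libraries. KO replicates 1 and 2 lay inside the WT range, as did KO replicate 3, and the log2 fold change was -0.25 (SE 0.27, edgeR adjusted p = 0.961). Kprp, a keratinocyte proline-rich protein gene, had 0, 5 and 2 counts in KO libraries and 1, 0 and 4 in WT libraries.

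**Figure D3:**
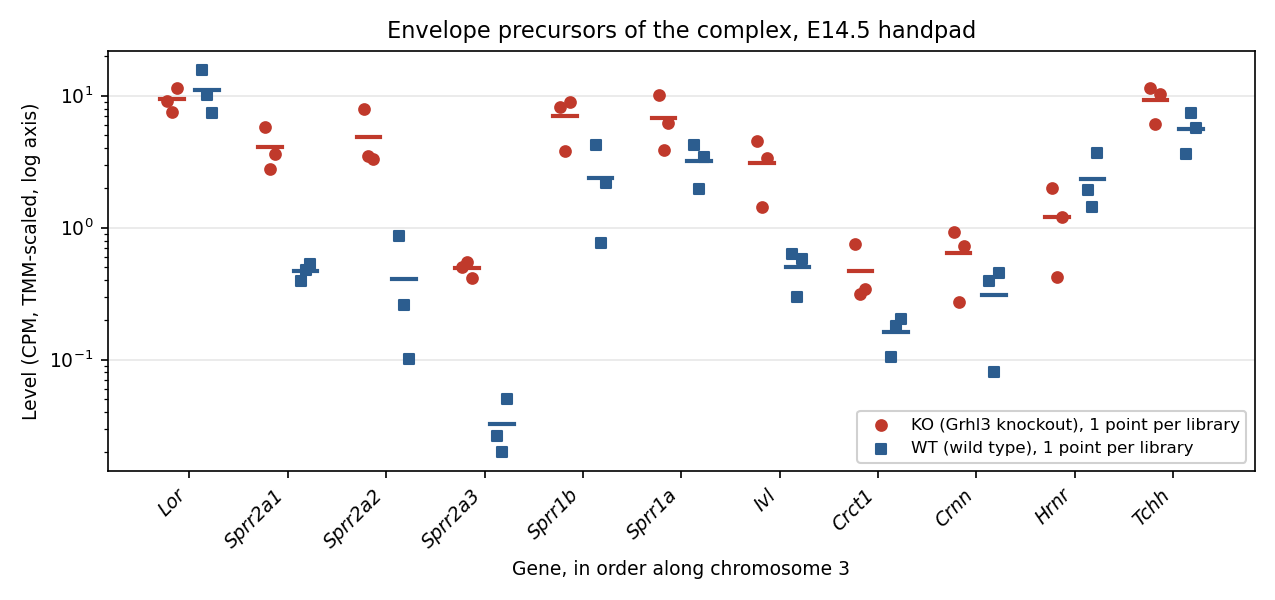
Level (CPM, TMM-scaled, log axis) of the 11 tested precursor genes in their order along chromosome 3, 1 point per library, with KO in red left of WT in blue and a line at each group mean. Sprr2a1, Sprr2a2, Sprr2a3, Ivl and Crct1 show no overlap, whereas Lor, Crnn, Hrnr and Tchh overlap.

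The LCE genes, which encode late envelope proteins, were close to 0 in both groups. Of the 21, 16 were at 0 in every library, and all 21 together held 5, 7 and 8 counts in KO libraries, against 3, 6 and 3 in WT libraries. Their summed level was 0.601, 0.955 and 0.656 TPM in KO libraries, against 0.181, 0.374 and 0.507 TPM in WT libraries. The TPM sums did not overlap but the counts did, and both rest on a handful of reads. Lce3c had 3, 6 and 3 counts in KO libraries, against 0, 0 and 2 in WT libraries. Lce6a had 1, 0 and 1 counts in KO libraries and 3, 6 and 1 in WT libraries. Lce3f had 3 counts over the KO libraries and none in WT libraries, and no LCE gene could be tested.

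Of the S100-fused genes, 3 could be tested and none was called. Tchh, which encodes trichohyalin, a structural protein of the hair root sheath and tongue, was at 11.4, 6.06 and 10.2 CPM in KO libraries, against 3.62, 7.42 and 5.69 CPM in WT libraries. KO replicate 2 lay inside the WT range, and the log2 fold change was 0.72 (SE 0.30, edgeR adjusted p = 0.666). Hrnr, which encodes the filaggrin-like protein hornerin, was at 1.99, 0.421 and 1.20 CPM in KO libraries, against 1.93, 1.42 and 3.69 CPM in WT libraries. Its log2 fold change was -0.96 (SE 0.54, edgeR adjusted p = 0.814), again with overlap. Crnn, the cornulin gene, was at 0.933, 0.274 and 0.728 CPM in KO libraries, against 0.396, 0.0802 and 0.455 CPM in WT libraries, with overlap and a log2 fold change of 1.09 (edgeR adjusted p = 0.827).

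Filaggrin itself had few counts. Flg had 10, 7.67 and 11 counts in KO libraries, against 4.02, 14 and 8 in WT libraries, and Flg2 had 0, 0 and 2 counts in KO libraries against 6, 2 and 9 in WT libraries. Rptn, the repetin gene, had 9, 0 and 2 counts in KO libraries and was at 0 in all WT libraries. Set against a floor of 3 counts over the WT group, the KO level gave a ratio of 3.01, most of it from KO replicate 1. This ratio makes no allowance for the counting error of the KO libraries. KO replicate 2 was at 0 like the WT libraries, so the groups overlapped. Counts this low carry a wide counting error, and Tchhl1 was at 0 throughout.

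The S100A genes encode EF-hand calcium-binding proteins, most of which are not specific to epidermis. S100a11 was the highest member, at 730, 510 and 655 TPM in KO libraries and 631, 654 and 570 TPM in WT libraries. S100a10, the partner of annexin A2, followed with 521, 380 and 489 TPM in KO libraries and 440, 386 and 415 TPM in WT libraries. Within every KO and every WT library, S100a11 lay above S100a10. S100a6 came next by mean TPM, then S100a14, S100a16, S100a13 and S100a4. Reads of S100a11 and S100a4 could in part be shared, since 48.9% and 49.2% of their 31-base words occurred in another gene, among them predicted genes with Gm names.

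S100a6, which encodes calcyclin, had the largest difference of the abundant S100A genes. It was at 102, 58.4 and 80.2 CPM in KO libraries, against 47.7, 29.8 and 32.2 CPM in WT libraries. The groups did not overlap, and the log2 fold change of 1.13 (SE 0.23) did not pass the test over all genes (edgeR adjusted p = 0.1275). Without WT replicate 1 it was called (1.37, adjusted p = 0.0232). S100a16 was at 93.1, 67.8 and 92.9 CPM in KO libraries and 74.1, 65.2 and 65.4 CPM in WT libraries. Its ranges overlapped at KO replicate 2, with a log2 fold change of 0.31 (SE 0.13, edgeR adjusted p = 0.685). Among its transcripts, S100a16-202 held most reads in every library except WT replicate 3, where S100a16-201 did, with 1426 counts against 508. The summed counts of the gene do not depend on that division.

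S100a8 and S100a9, the calprotectin subunits that are abundant in neutrophils and in stressed keratinocytes, were low. S100a8 was at 1.52, 0.400 and 0.346 CPM in KO libraries, against 0.264, 0.0802 and 0.278 CPM in WT libraries. S100a9 was at 1.06, 0.232 and 0.109 CPM in KO libraries, against 0.290, 0.221 and 0.101 CPM in WT libraries. KO replicate 1 was by far the highest library for both, and neither passed the test (log2 fold changes 1.89 and 1.17, edgeR adjusted p = 0.552 and 0.891). Neutrophil markers summed to 12.3, 14.2 and 13.3 CPM in KO libraries and 16.5, 12.8 and 12.8 CPM in WT libraries over 16 genes, with Ly6g and Chil3 at 0 in all of them. Of that list 5 genes could be tested, and 0 were called by edgeR or DESeq2 or reached an unadjusted p under 0.05. Their median log2 fold change was -0.211, and 1 of the 5 was above 0. Most of the sum came from Mmp9, Prtn3, Csf3r and Cxcr2. Among untested markers, all with few counts, some were named after their values were seen. The granule protein genes Ngp, Camp, Ltf and Lcn2 were higher in every KO library than in any WT library and highest in KO replicate 1. The other untested markers, among them Ctsg, Elane, Mmp8, Cebpe and Retnlg, did not separate the groups. Ngp was at 0.548, 0.126 and 0.0364 CPM in KO libraries, against 0, 0.0201 and 0 CPM in WT libraries. Camp was at 0.406, 0.168 and 0.109 CPM in KO libraries, against 0.0528, 0 and 0.0506 CPM in WT libraries. The part of neutrophil RNA in the S100a8 and S100a9 values was not tested.

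In CPM, the other tested S100A genes overlapped between the groups. S100a14, an epithelial S100 protein, was at 73.6, 45.1 and 57.0 CPM in KO libraries and 49.5, 61.7 and 55.1 CPM in WT libraries. S100a13, which takes part in the release of growth factors that lack a signal peptide, was at 41.0, 35.9 and 46.9 TPM in KO libraries and 55.4, 38.4 and 42.2 TPM in WT libraries. S100a1, best known from heart muscle, was at 3.08, 2.53 and 2.58 CPM in KO libraries and 4.33, 2.07 and 2.45 CPM in WT libraries. WT replicate 1 was the highest library for S100a13 and S100a1. S100a4, a metastasis-associated protein of fibroblasts and migrating cells, was at 1.42, 1.14 and 1.40 CPM in KO libraries and 1.98, 0.943 and 1.29 CPM in WT libraries. S100a3, known from the hair cuticle, was at 0.507, 0.526 and 0.528 CPM in KO libraries and 0.766, 0.1003 and 0.354 CPM in WT libraries. In CPM the KO values of both lay inside the WT range, and WT replicate 1 was again the highest library. In TPM, S100a3 was at 1.70, 1.47 and 0.981 in KO libraries, against 0.864, 0.170 and 0.301 in WT libraries, without overlap. Its reads were divided among transcripts of unlike length, on which TPM depends and the counts do not. With S100a10 and S100a11, these genes had log2 fold changes between -0.11 and 0.39 and none was called. S100a2 and S100a5 were at 0 throughout. Over the 11 tested S100A genes the median log2 fold change was 0.21, and over the 11 tested precursors it was 1.503, beside -0.004 over all genes tested. The precursor median counts each Sprr2a copy as a gene, although their reads could hardly be divided. All of these copies lie above it, so counting them once would lower it.

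**Figure D4:**
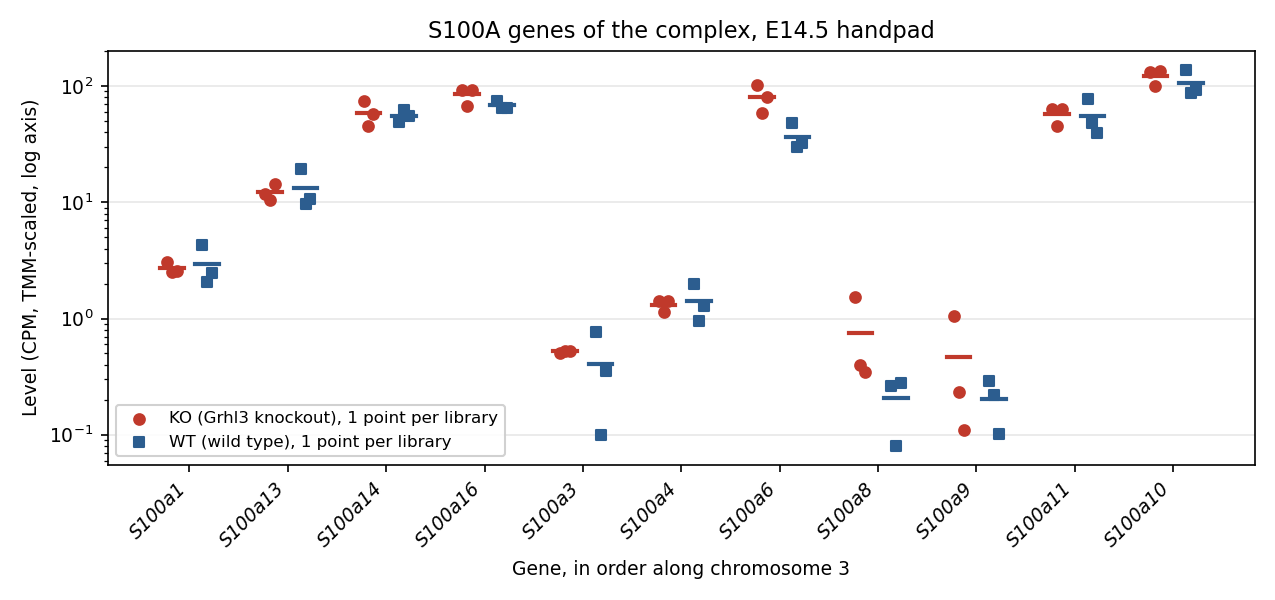
Level (CPM, TMM-scaled, log axis) of the 11 tested S100A genes in their order along chromosome 3, 1 point per library, with KO in red left of WT in blue and a line at each group mean. S100a6 and S100a8 show no overlap, and for S100a8 and S100a9 a single KO library (1.52 and 1.06 CPM) lies far above the rest.

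Levels of markers of the surface epithelium and its layers also differed between libraries. Pan-epithelial markers summed to 1806, 1322 and 1623 CPM in KO libraries, against 834, 1571 and 1043 CPM in WT libraries, with 16 of 20 fold changes above 0 and a median log2 fold change of 0.49, and 1 of them (Cldn7) was called. Basal epidermal markers summed to 3768, 2858 and 3733 CPM in KO libraries and 1606, 2612 and 1642 CPM in WT libraries, without overlap. All 13 had log2 fold changes above 0 (median 0.40, 4 without overlap, beside 6.77% of all genes tested). None of the 13 was called by edgeR (6 higher at an unadjusted p under 0.05, and 4 called by DESeq2). Periderm markers summed to 1349, 704 and 1055 CPM in KO libraries and 241, 440 and 291 CPM in WT libraries, with 7 of 14 called higher, beside 0.348% of all genes tested, and a median log2 fold change of 1.39. With no adjustment, 9 periderm markers were higher and 1, Krt4, was lower at p under 0.05. Krt4, a keratin, was at 22.4, 13.1 and 14.2 CPM in KO libraries, against 37.6, 83.3 and 46.5 CPM in WT libraries, without overlap (log2 fold change -1.75, edgeR adjusted p = 0.0785). Without KO replicate 1, KO replicate 3 or WT replicate 3 the periderm calls were 3, 4 and 2. Spinous markers had a median log2 fold change of 0.09, and none of 10 was called by edgeR or DESeq2, with 1 higher and 1 lower at an unadjusted p under 0.05. In a fit of the summed Sprr2a copies added after the data were seen, the pan-epithelial markers set the library sizes. The log2 fold change was then 2.80 (edgeR adjusted p = 9.82e-11). With this scaling the median of all genes was at -0.521 and 394 genes were called. The markers used for the scaling themselves had 16 of 20 fold changes above 0, and they do not separate the epithelial layers. Of other cell types, all 13 cartilage markers had log2 fold changes below 0 (median -0.46, 5 without overlap and 5 lower at an unadjusted p under 0.05), and 0 were called by edgeR and 1 by DESeq2. All 11 erythroid markers had log2 fold changes above 0 (median 0.29, 3 higher at an unadjusted p under 0.05), and 0 were called by edgeR or DESeq2. The part of the pan-epithelial, basal epidermal, periderm, cartilage and erythroid markers in the Sprr2a and Ivl values was not tested.

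Among genes of the cornified envelope outside the complex, 3 genes of desquamation and its adhesion structures rose. Of 39 listed, 31 were tested, and 3 rose and none fell, beside 0.348% of all genes tested that were called higher. Over the list the median log2 fold change was 0.42. With no adjustment, 13 were higher and 1 was lower at p under 0.05, beside 3.81% and 3.41% of all genes tested. The calls were Klk7 and Klk5, proteases of desquamation, and Cdsn, the corneodesmosome adhesion protein, with log2 fold changes of 6.27, 2.33 and 6.95. Cdsn was at 28.5, 9.41 and 18.5 CPM in KO libraries, against 0.0792, 0.120 and 0.253 CPM in WT libraries. Klk7 was at 55.2, 18.3 and 32.1 CPM in KO libraries, against 0.317, 0.481 and 0.557 CPM in WT libraries. The sizes of these 2 fold changes rest on low WT levels. The count of calls was 8 without KO replicate 2, 6 without WT replicate 1, and 2 without KO replicate 1, KO replicate 3 or WT replicate 3, when Klk5 was lost (adjusted p = 0.207, 0.158 and 0.263). Spink5, an inhibitor of those proteases, was at 30.98, 8.61 and 18.5 CPM in KO libraries, against 1.45, 3.01 and 3.19 CPM in WT libraries (log2 fold change 2.92, edgeR adjusted p = 0.0505). Cst6, a cystatin that restrains envelope proteases, was at 14.7, 2.76 and 9.51 CPM in KO libraries, against 1.11, 1.04 and 0.885 CPM in WT libraries (log2 fold change 3.15, edgeR adjusted p = 0.0674). The groups overlapped in neither gene, and neither passed the test.

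Neither Tgm1 nor Tgm3, enzymes that cross-link the precursors, was called. Tgm1 was at 37.7, 22.0 and 32.3 CPM in KO libraries, against 17.8, 29.6 and 18.8 CPM in WT libraries (log2 fold change 0.47, edgeR adjusted p = 0.784). Tgm3 was at 5.50, 3.58 and 6.95 CPM in KO libraries, against 8.21, 16.8 and 9.46 CPM in WT libraries. Every KO value of Tgm3 was below every WT value, with a log2 fold change of -1.11 (SE 0.32, edgeR adjusted p = 0.358).

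Transcription factors and chromatin regulators known to act on the complex numbered 43 on the list, of which 42 were tested and none was called by edgeR. With no adjustment, 12 were higher and 2 lower at p under 0.05, beside 3.81% and 3.41% of all genes tested. The median log2 fold change was 0.14, and DESeq2 called 4 (beside 1.77% of all genes tested). Those with the smallest p-values included Fosl2, an AP-1 subunit (log2 fold change 0.70, edgeR adjusted p = 0.135), and Notch1, a receptor that drives spinous fate (0.68, adjusted p = 0.287). Among 9 tested binding partners of S100 proteins none was called by edgeR and 1 by DESeq2, with 1 higher and 2 lower at an unadjusted p under 0.05. Anxa1, an annexin, had a log2 fold change of 0.87 (edgeR adjusted p = 0.204).

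Other genes at the same place on the chromosome were not called by edgeR. Of the 15 other protein-coding genes inside the span, 4 were tested, and none was called by edgeR or DESeq2 or reached an unadjusted p under 0.05, with a median log2 fold change of 0.13. Of 20 listed neighbours that the member rule left out, 13 were tested and none was called by edgeR and 1 by DESeq2. Of these, 0 were higher and 1 lower at an unadjusted p under 0.05, with a median log2 fold change of 0.002. The 2 sets are not separate, since Pglyrp3, Prr9 and S100a7a were tested in both, and S100a7a has an S100A name.

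Motif matches set the promoters of the complex beside those of all genes. A RefSeq promoter was available for 53 members, and motifs were searched on both strands. A member was counted if any of its promoters matched, and S100a3 and S100a16 had more than 1, whereas the shares of all genes are per promoter. The percentages are therefore not in quite the same unit. AACCGGTT, the motif of grainyhead-like factors, was in 0 of the 53 and in 0.146% of 32851 promoters of all genes. Its looser form AACNGGTT, which contains every AACCGGTT, was in 5.66% of these members (Rptn, S100a3 and S100a9) and in 2.09% of all promoters. TGANTCA was in 34% of these members and 7.81% of all promoters, and TATAAA was in 45.3% of these members and 13.6% of all promoters. GCCNCGCCC, a GC box of Sp and Krüppel-like factors, was in 1.89% of these members and 14.7% of all promoters. Sprr2b, Sprr2d, Sprr2e, Sprr2f, Sprr2h, Sprr2i and Sprr2k all held TGANTCA and TATAAA as Ivl did and had few or no counts. The Sprr2a copies, which had many more counts, held none of the 5 motifs in these windows. The Sprr2a1 window ended before the annotated start of Sprr2a2, so not every start of the Sprr2a copies was searched. The last bases of the Sprr2a1 window match bases that lie just before the TATAAA in the Sprr2b window. A TATAAA just past the end of the Sprr2a1 window would have been missed. For TATAAA the 2 sets of windows are therefore not comparable, and for the other motifs they may not be. A match is a string of letters and not a bound site, and no match says only that the letters are not in these windows.

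The authors' deposited table, which lists 941 genes with p-values up to 0.0506, held 8 members, all with positive log2 fold changes. In the authors' deposited table, a false discovery rate under 0.05 was given to 4 of them, namely Sprr2a1 (log2 fold change 3.12, 2.75e-12), Ivl (2.61, 4.98e-05), Sprr2a2 (3.58, 0.0001285) and S100a6 (1.13, 0.0007765). Such a rate was given to 228 of the 941 genes in the authors' deposited table. Genes with larger p-values are not in it, so the share over all genes the authors tested is not known. The authors' deposited table lists Sprr1a, Sprr1b, Tchh and S100a16 with false discovery rates above that threshold. Sprr2a3, which was called here, has no row in the authors' deposited table. The fold changes differ little between the sources, whereas the authors' deposited table carries a likelihood ratio score and smaller p-values. The likelihood ratio test of edgeR, run here on the same counts, called 5 members higher, beside 1.09% of all genes tested that it called higher.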

How the data were processed

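Per the submitters' processing notes, reads were quantified with kallisto against mm10. The sources used here do not give its version or its transcripts. Libraries were made with a stranded Illumina mRNA kit, per the labels. Per the file headers, each deposited table gives estimated counts, not normalized, and TPM for 111462 transcripts. The authors' deposited comparison table holds log2 fold changes, log2 CPM, likelihood ratio scores, p-values and false discovery rates.

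Transcripts were matched to GENCODE M21 (110203 matched), and estimated counts were summed per gene and rounded for tests. Depth was 38052692 to 56037639 estimated counts, and floors cover counting error only. KO and WT were compared with edgeR 4.0.16 (R 4.3.3, quasi-likelihood test, TMM, minimum count 10 and total 15), adjusted by Benjamini-Hochberg over 16938 genes, called under 0.05. Alternatives used limma 3.58.1 and DESeq2 1.42.0, other scalings and filters, and left-out libraries. The merged Sprr2a row with libraries left out, with the Y-linked term or with the pan-epithelial scaling was added after seeing the data. The fits were tested on simulated data. Promoters are RefSeq's (GRCm38.p6), coding sequences GENCODE's.

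Members and lists were chosen with earlier results of these data known. Every member is described. From each other list the text takes up to 6 genes with the smallest p-values, and Tgm1 and Tgm3 were chosen after their values were seen. For 1 listed gene no result is reported here.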

Additional observations from a re-analysis of the deposited data

How the results depend on the processing

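The 2 members called became 5 with no filter on low counts, with the likelihood ratio test and with DESeq2, 4 at an FDR of 0.1, 1 with a minimum count of 30 and total of 45, at an FDR of 0.01 and with the Sprr2a copies merged, and 0 with limma on log2(TPM + 1) and when Y-linked level was a term. Scaling on the pan-epithelial list called 5, of which Hrnr fell (log2 fold change -1.56, adjusted p = 0.00995), and moved the median of all genes to -0.521. With single libraries left out, the count was 0 to 4. The other scalings, effective length offsets, limma-voom and limma on log2(TPM + 0.1) gave 2. Over all genes the 73 calls became 118 with no filter, 260 by the likelihood ratio test, 299 by DESeq2, 394 with the pan-epithelial scaling, 113 at an FDR of 0.1, 19 at 0.01, 45 with limma-voom and with length offsets, 35 and 21 with limma on log2(TPM + 0.1) and log2(TPM + 1), and 10 to 206 with a library left out.

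The members' median log2 fold change of 0.90 moved to 0.259 at the stricter minimum count, which tests fewer members, 0.462 with limma on log2(TPM + 1), 0.359 with the pan-epithelial scaling and 0.505 with the Y-linked term, and spanned 0.405 to 1.237 with a library left out. Grhl3 lost its call with limma-voom (-2.99), limma on log2(TPM + 1) (-2.33) and log2(TPM + 0.1) (-2.93) and the Y-linked term (-2.21), and spanned -3.434 to -2.465 with a library left out. Sprr2a1 was called in 17 of 20 alternatives (adjusted p = 3.95e-14 to 0.0976), Sprr2a3 in 11 of 19 (3.94e-08 to 0.136), Ivl in 6 of 21 (4.53e-06 to 0.319), Sprr2a2 in 6 of 20 (3.41e-09 to 0.332) and S100a6 in 5 of 21 (0.000157 to 0.52). None of these reversed.

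Same-numbered KO and WT libraries did not deviate together (correlations -0.333, -0.102 and -0.231), so the numbers do not pair the samples. With the replicate number as a block, 4 members (Sprr2a1, Sprr2a2, Ivl and S100a6) and 47 of all genes were called.

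Reversals were all of uncalled genes. Leaving out libraries, the ranges were -0.309 to 0.276 for S100a1, -0.289 to 0.275 for S100a13, -0.119 to 0.232 for S100a14, -0.305 to 0.248 for S100a4, -0.274 to 1.647 for S100a9, -0.468 to 0.084 for Lor and -0.133 to 0.393 for S100a11. S100a1, S100a13, S100a4 and Lor turned without WT replicate 1, S100a14, S100a9 and S100a11 without KO replicate 1, S100a11 also without KO replicate 3 (-0.023), WT replicate 2 (-0.03) and WT replicate 3, S100a3 without WT replicate 2 (-0.099), and S100a4 without KO replicate 2 (0.012) and with limma-voom (0.001). With the pan-epithelial scaling S100a14 was at -0.432, S100a16 at -0.232, S100a3 at -0.238, S100a11 at -0.521 and S100a10 at -0.368. With the Y-linked term S100a3 was at -0.655, S100a11 at -0.511 and S100a10 at -0.223. Apart from the length offsets, fewer members tested and fewer samples, the cause was not tested. Members with few counts, LCE and most SPRR2 genes among them, cannot be compared at this depth.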
